A study of Mus musculus with 8 samples.

Results

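Retinoic acid (RA) is made from vitamin A inside cells, and 10 genes that encode enzymes of its synthesis and clearance were followed here among the 49585 genes listed for newborn mouse brain. They were chosen by name: *Bco1*, *Lrat*, *Rdh10*, *Dhrs3*, *Aldh1a1*, *Aldh1a2*, *Aldh1a3*, *Cyp26a1*, *Cyp26b1* and *Cyp26c1*, each found once through its Ensembl identifier, and all 10 passed the filter on low counts. The RNA came from whole brains of 8 female B × C hybrids (a C57BL/6J mother and a CAST/EiJ father) at postnatal day 1. The dams of 4 pups drank water without cadmium (0 ppm CdCl2) and the dams of the other 4 drank water with 50 ppm CdCl2, from before mating until birth, and every pup came from a different litter. No group carried a transgene or an engineered allele, all pups had the same cross and sex, and each library was made from RNA of a small portion of 1 pulverized brain. The comparison of 50 ppm with 0 ppm asks whether maternal Cd exposure was accompanied by other transcript levels of these enzymes at birth.

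The pathway runs in steps. BCO1 cleaves beta-carotene to retinaldehyde, LRAT stores retinol as retinyl ester, RDH10 oxidizes retinol to retinaldehyde, and DHRS3 reduces retinaldehyde back to retinol. The retinaldehyde dehydrogenases ALDH1A1, ALDH1A2 and ALDH1A3 make RA, which binds nuclear receptors of the RAR and RXR families, and the CYP26 enzymes hydroxylate RA and so remove it. In the perinatal brain, *Aldh1a2* is known as the meningeal synthase, *Aldh1a1* is known from midbrain dopaminergic neurons and *Aldh1a3* from ventral forebrain, while *Cyp26b1* is found in groups of neurons.

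Sequences are shown for *Aldh1a2*, the member with the smallest p-value between doses, and for the promoters that carry a pair of the hexamers described below. The 2 primers below are the ones the study used to amplify *Aldh1a2* by qRT-PCR, and they place that assay on the gene (chromosome 9, 71215789 to 71296243, plus strand, GRCm38). The forward primer lies in exon 2 at 71252626 to 71252646 and the reverse primer in exon 3 at 71252953 to 71252974, both in the coding part of the gene's 1 annotated transcript, which has 14 exons and 2264 bases. They enclose 136 bases of the spliced transcript.
Both primers are written 5′ to 3′, the reverse one on the minus strand.
Aldh1a2 forward primer: cagagagtgggagagtgttcc
Aldh1a2 reverse primer: cacacagaaccaagagagaagg

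Receptors for RA bind a short hexamer that is repeated in the same orientation. The hexamer AGGTCA and its variants AGTTCA and GGGTCA and also GGTTCA were searched in pairs with gaps of 1, 2 or 5 bases, on both strands, in RefSeq promoter windows of GRCm38.p6 that reach from 250 bases before a gene's start to 50 after it. A window was at hand for 8 of the 10 members (none for *Aldh1a3* and *Rdh10*). A pair with a gap of 5 was found in the window of *Cyp26a1*, 32 bases before the start, and a pair with a gap of 1 in that of *Bco1*, 56 bases before it; the windows of the other 6 members held none. Among retinoid genes outside the members, *Rarb*, which encodes the receptor RAR beta, held a pair with a gap of 5, 53 bases before its start. Of all 32851 windows, 0.0974% held a pair with a gap of 5, 0.222% one with a gap of 1 and 0.588% any of the 3, while a single hexamer occurred in 43.7%. The stretches are written 5′ to 3′ on the strand of the gene, with both hexamers and the gap in capitals. A match describes the letters of the window and is no measure of binding, nor of which receptor would bind.
Cyp26a1, chr19:37697756-37697807, plus strand: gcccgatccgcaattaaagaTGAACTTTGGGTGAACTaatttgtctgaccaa
Rarb, chr14:16575493-16575549, minus strand: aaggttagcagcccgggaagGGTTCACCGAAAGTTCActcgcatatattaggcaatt
Bco1, chr8:117095789-117095841, plus strand: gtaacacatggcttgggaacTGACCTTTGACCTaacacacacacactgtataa

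The libraries held 22916434 to 30708087 reads assigned to genes of the C57BL/6J genome. Levels are given as CPM, read counts scaled to a common library size with the TMM method, and 3 reads, the most that a count of 0 allows, correspond to 0.0977 to 0.131 CPM. Such limits cover counting error only. Because whole brain was sequenced, a change in the number of cells of a type and a change of RNA per cell cannot be told apart. Neuronal markers identified the tissue, with summed levels of 2660 to 3030 CPM at 0 ppm, against 2810 to 3010 CPM at 50 ppm over 8 genes. One of those 8, *Tubb3*, was listed at 0 reads in every library, although neurons are known to use it, so a listed 0 is not read as absence here. In the GRCm38 annotation, no exon of a member overlaps an exon of another gene. *Cyp26c1* (37685581 to 37693398) and *Cyp26a1* (37697798 to 37701536) are neighbours on the plus strand of chromosome 19, which also carries *Aldh1a1* (20492715 to 20643465, plus strand). *Cyp26b1* lies on chromosome 6 (84571414 to 84593908, minus strand), *Aldh1a3* on chromosome 7 (66390890 to 66427517, minus strand), *Rdh10* on chromosome 1 (16105774 to 16133734, plus strand) and *Dhrs3* on chromosome 4 (144892827 to 144928209, plus strand). *Lrat* is on chromosome 3 (82892579 to 82903973, minus strand) and *Bco1* on chromosome 8 (117095854 to 117133720, plus strand). Markers of hindbrain and spinal cord varied widely among brains, with sums of 27.8 to 83.9 CPM at 0 ppm, against 73.8 to 166 CPM at 50 ppm.

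Across all genes, the quasi-likelihood test of edgeR, at an adjusted p under 0.05, called 4 of 23113 genes (0.0173%), and it called 0 of the 10 enzyme genes. At an unadjusted p under 0.05, 2 members were higher at 50 ppm, *Aldh1a2* and *Cyp26b1*, against 2.31% of all genes, and 0 members were lower, against 1.44%. In 1 member, *Aldh1a2*, all 4 exposed brains lay above all 4 control brains, which held for 1.19% of all genes, and in 0 members did they lie below, which held for 0.904%. DESeq2, the study's own tool, called 1 member on the same counts, *Aldh1a2*, and 0.0862% of the genes to which it gave an adjusted p. Without a filter on low counts, edgeR called 1 member, *Cyp26b1*, and 0.192% of all genes. The fitted difference was positive in 6 members and negative in 4, with a median log2 fold change of 0.13. Over all genes tested it was positive in 11318 and negative in 11795, with a median of -0.003. The members counted include *Cyp26c1*, *Bco1* and *Cyp26a1*, whose directions rest on few reads.

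**Figure D1:**
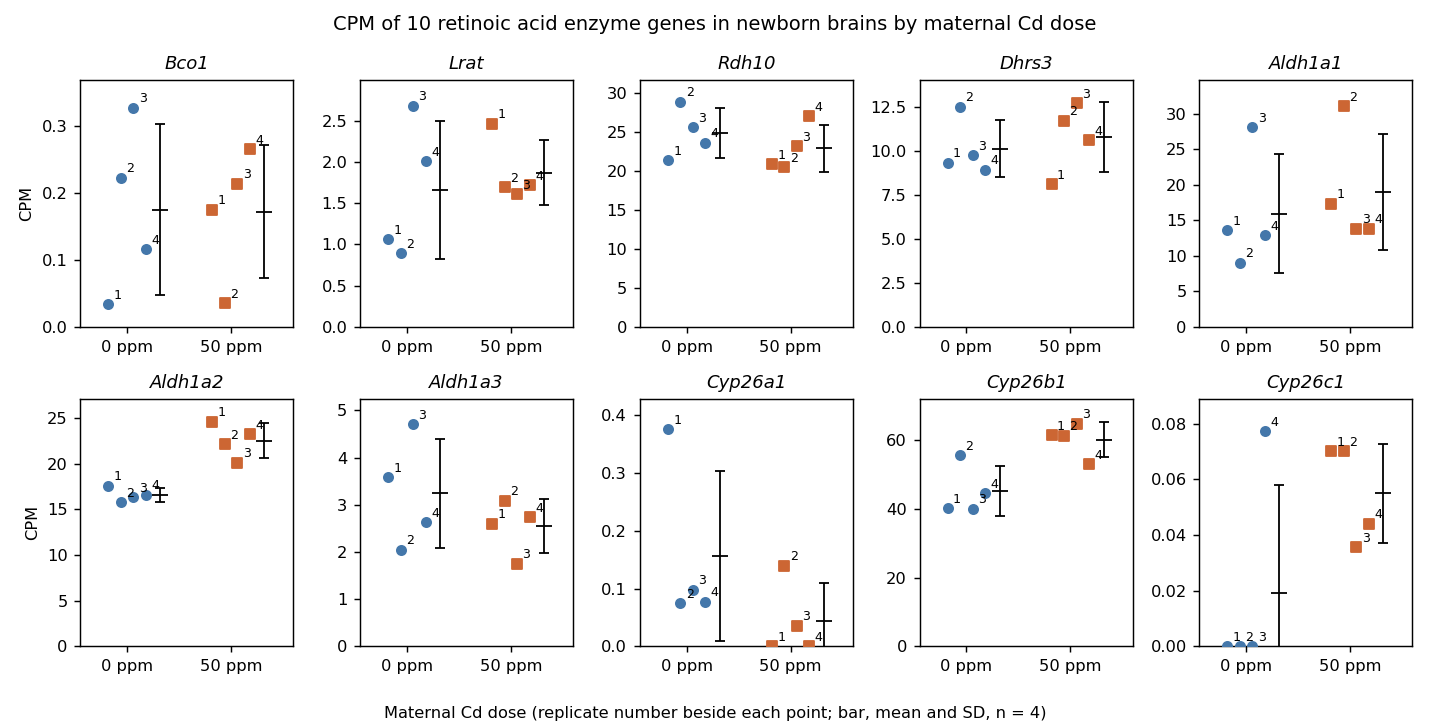
CPM of the 10 enzyme genes by maternal Cd dose, with 1 point per brain, the replicate number beside it, and a bar for the mean and SD of 4 brains (bars are cut off at 0 for Cyp26a1 and Cyp26c1, and every panel has its own scale). In Aldh1a2 the 4 exposed brains (20.1 to 24.6 CPM) lie above the 4 control brains (15.8 to 17.6 CPM), and in the other 9 genes the groups overlap.

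The enzymes that make RA differed among themselves. *Aldh1a2* had 17.6, 15.8, 16.3 and 16.6 CPM at 0 ppm, against 24.6, 22.1, 20.1 and 23.2 CPM at 50 ppm, in replicates 1 to 4 of each dose, the order used throughout. The groups did not overlap, and the control brains were the most alike of any member, with a coefficient of variation of 4.48%. Counts were 425 to 515 reads per control brain and 526 to 701 per exposed brain. The mean went from 16.6 ± 0.744 CPM to 22.5 ± 1.88 CPM (SD, n = 4 each), which is 1.36-fold, with a log2 fold change of 0.44 ± 0.10 (SE). Its p-value was number 18 from the smallest among all 23113 genes tested, and edgeR's adjusted p of 0.298 missed the threshold. With DESeq2 the adjusted p was 0.0127, and over the 15 alternatives it ranged from 0.0127 to 1.0, while the log2 fold change lay between 0.40 and 0.50 and the unadjusted p was under 0.05 in all 15.

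Reads aligned to the CAST/EiJ genome gave similar counts for *Aldh1a2*, with 505, 421, 497 and 428 reads at 0 ppm, against 697, 622, 561 and 519 at 50 ppm. These are 98.1% to 99.5% of the reads counted on the C57BL/6J genome, from the same libraries. The log2 fold change there was 0.45 ± 0.09 (SE), and edgeR's adjusted p was 0.24 over 19847 genes.

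*Aldh1a1* had 13.6, 9.04, 28.1 and 12.9 CPM at 0 ppm, against 17.3, 31, 13.8 and 13.8 CPM at 50 ppm. One brain of each dose stood high, control replicate 3 and exposed replicate 2, and the groups overlapped over nearly their whole range. The log2 fold change was 0.25 ± 0.28 (SE; edgeR adjusted p = 0.999), with an interval of 1.96 standard errors from -0.30 to 0.80. It was -0.09 without exposed replicate 2 and 0.68 without control replicate 3, so that its direction rested on 1 brain. The closest paralog, *Aldh1a7*, shares 89.1% of the bases over 2072 bases of transcript and had 23 to 72 reads per brain, against 243 to 882 reads for *Aldh1a1*.

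*Aldh1a3* had 3.58, 2.05, 4.70 and 2.63 CPM at 0 ppm, against 2.60, 3.09, 1.75 and 2.74 CPM at 50 ppm. Its highest and second highest values were control brains, and its lowest was an exposed brain, with overlap of the groups. The log2 fold change was -0.36 ± 0.24 (SE; edgeR adjusted p = 0.999). One or more of its 5 annotated transcripts hold a stretch of at least 100 bases that is at least 95% identical to transcripts of 48 other genes, so reads from that stretch are uncertain.

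The genes that act on retinol and retinaldehyde before the synthases had dose differences within 1.96 standard errors of 0. *Rdh10* had 21.4, 28.9, 25.6 and 23.6 CPM at 0 ppm, against 20.9, 20.5, 23.2 and 27.0 CPM at 50 ppm. Its groups overlapped, with a log2 fold change of -0.12 ± 0.11 (SE; edgeR adjusted p = 0.999) and an interval from -0.34 to 0.10. *Dhrs3*, the reductase that opposes RDH10, had 9.32, 12.5, 9.73 and 8.91 CPM at 0 ppm, against 8.10, 11.7, 12.7 and 10.6 CPM at 50 ppm. Both its lowest and its highest value were exposed brains, and the log2 fold change was 0.10 ± 0.15 (SE; edgeR adjusted p = 0.999), with an interval from -0.19 to 0.39. *Lrat* had 1.06, 0.893, 2.68 and 2.01 CPM at 0 ppm, against 2.46, 1.69, 1.61 and 1.72 CPM at 50 ppm. The control brains fell into a low pair, replicates 1 and 2, and a high pair, replicates 3 and 4, and the exposed brains lay between or within them. The log2 fold change of *Lrat* was 0.17 ± 0.30 (SE; edgeR adjusted p = 0.999), and it was -0.04 without control replicate 2.

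*Bco1* was near the limit of the counts, with 1, 6, 10 and 3 reads at 0 ppm, against 5, 1, 6 and 6 at 50 ppm. The summed reads were 20 and 18, a ratio of 0.941 after scaling for depth, with an exact 95% counting interval of 0.469 to 1.87. No difference was detectable at this depth.

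Of the enzymes that clear RA, *Cyp26b1* carried nearly all reads. It had 40.3, 55.7, 40.1 and 44.7 CPM at 0 ppm, against 61.6, 61.4, 64.9 and 53.0 CPM at 50 ppm. Exposed replicates 1 to 3 lay above every control brain, while exposed replicate 4 lay below control replicate 2, so the groups overlapped by 1 pair of brains. The mean went from 45.2 ± 7.30 CPM to 60.2 ± 5.10 CPM (SD, n = 4 each), which is 1.33-fold, with a log2 fold change of 0.42 ± 0.10 (SE). Its p-value was number 34 from the smallest, with an adjusted p of 0.421 by edgeR. Without a filter on low counts the adjusted p was 0.0337, within a range of 0.0337 to 0.999 over 15 alternatives, and the unadjusted p was under 0.05 in all 15.

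In the alignment to the CAST/EiJ genome, *Cyp26b1* had 367, 513, 434 and 418 reads at 0 ppm, against 591, 560, 630 and 376 at 50 ppm. These were 31.1% to 36.2% of its reads on the C57BL/6J genome (1155 to 1820 per brain), where *Aldh1a2* kept nearly all of its own. The log2 fold change was 0.37 ± 0.13 (SE), with an adjusted p of 0.999 by edgeR and an unadjusted p under 0.05, so the difference had the same direction and a wider error in that genome.

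*Cyp26a1*, the member whose promoter window holds the motif pair with a gap of 5, had 11, 2, 3 and 2 reads at 0 ppm, against 0, 4, 1 and 0 at 50 ppm. Control replicate 1 held 11 of the 18 control reads, and the other 7 brains had at most 4. The ratio of the summed reads, 5 against 18, was 0.291 with an exact 95% counting interval of 0.0843 to 0.812. That interval leaves out the spread between brains. With that spread, the log2 fold change was -1.69 ± 0.92 (SE; edgeR adjusted p = 0.999), and it lay between -3.25 and -0.80 over the alternatives. *Cyp26c1* had 0, 0, 0 and 2 reads at 0 ppm, against 2, 2, 1 and 1 at 50 ppm, all within what a count of 0 allows, and no fold is given.

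**Figure D2:**
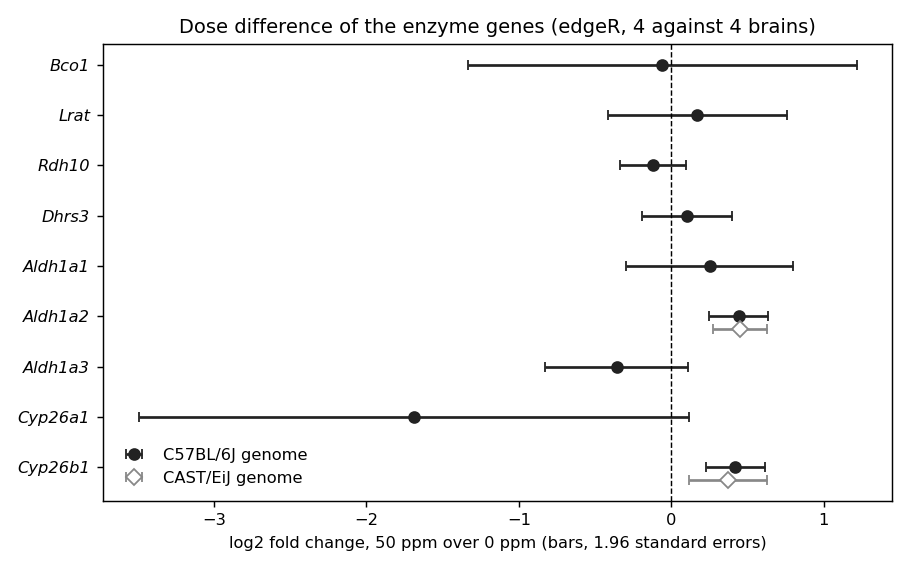
Log2 fold change of 50 ppm over 0 ppm for 9 enzyme genes in edgeR's fit, with bars of 1.96 standard errors; filled circles are counts on the C57BL/6J genome and open diamonds counts on the CAST/EiJ genome, and Cyp26c1 is left out because all its counts were at or under 3. The bars of Aldh1a2 (0.25 to 0.63) and Cyp26b1 (0.22 to 0.61) lie above 0, and those of the other 7 genes cross it.

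The synthase and the hydroxylase with the smallest p-values among the members were also set against each other in every brain. The CPM of *Aldh1a2* over that of *Cyp26b1* was 0.436, 0.284, 0.407 and 0.372 at 0 ppm and 0.399, 0.360, 0.310 and 0.438 at 50 ppm, with overlap of the groups. Across the 8 libraries the log2 CPM of both genes had a Pearson r of 0.64 and a Spearman rho of 0.52. The deviations from the dose means had an r of -0.50. *Aldh1a3* and *Cyp26b1* had an r of -0.74 over the 8 libraries, which was -0.30 without control replicates 1 and 3, the libraries furthest from the median of *Cyp26b1*. All of these correlations rest on the same 8 libraries, share their depth scaling, and are descriptions.

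Levels can be compared between genes only per length, as RPKM over the union of a gene's exons. At 0 ppm the order of the mean levels was *Cyp26b1* (8.44 ± 1.36 RPKM, SD, n = 4), *Aldh1a2* (7.33 ± 0.329), *Rdh10* (5.98 ± 0.767), *Dhrs3* (3.45 ± 0.549), *Aldh1a1* (3.22 ± 1.70), *Aldh1a3* (0.702 ± 0.252) and *Lrat* (0.310 ± 0.157). *Cyp26a1*, *Bco1* and *Cyp26c1* followed with means of 0.0788, 0.0688 and 0.0111 RPKM. The ranges over brains overlapped between *Cyp26b1* and *Aldh1a2*, between *Dhrs3* and *Aldh1a1*, between *Aldh1a3* and *Lrat*, and between each neighbouring pair from *Lrat* down. They did not overlap between *Aldh1a2* and *Rdh10*, *Rdh10* and *Dhrs3*, or *Aldh1a1* and *Aldh1a3*. At 50 ppm the first 3 places were the same, with 11.3 ± 0.953 RPKM for *Cyp26b1*, 9.94 ± 0.833 for *Aldh1a2* and 5.51 ± 0.718 for *Rdh10*. *Aldh1a1* (3.84 ± 1.65) stood before *Dhrs3* (3.69 ± 0.677) there, with overlapping ranges. The length used matters for *Aldh1a1*, whose exon union of 4937 bases exceeds its longest transcript of 2358 bases: with the latter its level at 0 ppm was 6.75 RPKM, above the 4.32 RPKM of *Dhrs3* on the same scale.

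**Figure D3:**
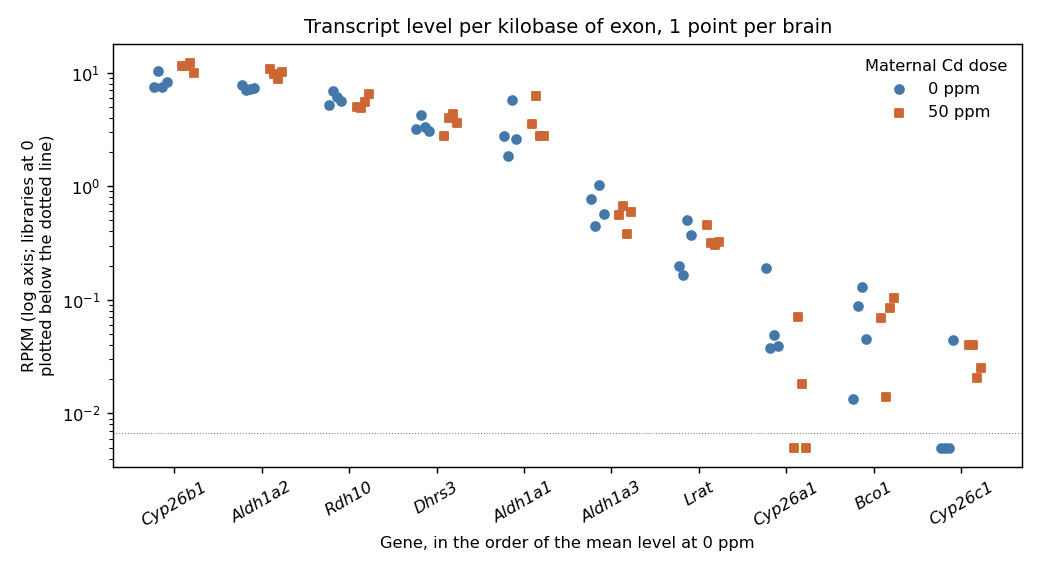
Level per kilobase of exon (RPKM, log axis) of each enzyme gene in each brain, circles for 0 ppm and squares for 50 ppm, with genes in the order of their mean at 0 ppm; libraries at 0 reads are drawn below the dotted line. Cyp26b1, Aldh1a2 and Rdh10 have mean levels of 5.98 to 8.44 RPKM at 0 ppm, and Cyp26a1, Bco1 and Cyp26c1 have means of 0.0111 to 0.0788 RPKM.

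Some markers of other cells moved with *Aldh1a2*, and others did not. Summed over 17 meningeal markers, the level was 737, 637, 712 and 628 CPM at 0 ppm, against 938, 772, 795 and 773 CPM at 50 ppm, with no overlap. Of these markers 15 were tested, 0 were called, and 4 had an unadjusted p under 0.05, all higher at 50 ppm (median log2 fold change 0.12 over the 15). The 4 were *Slc6a13*, *Ptgds*, *Slc47a1* and *S100a6*, of which the last 3 are named after their values were seen, as is *Bcas1* among the oligodendrocyte markers. *Foxc2* and *Dpep1* were listed at 0 in every library. *Slc6a13*, a GABA transporter of meningeal cells, had 32.3, 25.4, 30.8 and 29.0 CPM at 0 ppm, against 40.4, 37.3, 33.6 and 35.7 CPM at 50 ppm, with no overlap (log2 fold change 0.32 ± 0.09, SE; edgeR adjusted p = 0.789). *Foxc1*, a transcription factor that meninges need, had 13.1, 15.1, 12.7 and 13.2 CPM at 0 ppm, against 12.7, 14.1, 15.8 and 16.6 CPM at 50 ppm, with overlap (log2 fold change 0.13 ± 0.11, SE; edgeR adjusted p = 0.999). *Ptgds*, which encodes a prostaglandin D synthase and which the paper also places in the myelin transcriptome, made up much of the sum. Without it the 16 other markers summed to 379 to 497 CPM at 0 ppm, against 438 to 503 CPM at 50 ppm, with overlap.

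*Slc6a13* followed *Aldh1a2* through the 8 libraries with an r of 0.92 (rho 0.95), and of 0.89 without exposed replicates 1 and 4, while *Foxc1* had an r of 0.23. Around the dose means the r was 0.77 for *Slc6a13* and -0.55 for *Foxc1*. The summed meningeal markers had an r of 0.86 with *Aldh1a2* over the 8 libraries and of 0.61 around the dose means. Without *Ptgds* these values were 0.47 and 0.13. The part of the meninges in the difference of *Aldh1a2* was not tested.

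The oligodendrocyte markers also separated the doses, with sums of 108 to 143 CPM at 0 ppm, against 144 to 219 CPM at 50 ppm, and 7 of 8 had an unadjusted p under 0.05 (all 7 higher, 1 of them called, *Bcas1*). *Mbp*, which encodes a major protein of myelin, had means of 56.4 and 79.1 CPM (log2 fold change 0.49 ± 0.10, SE; edgeR adjusted p = 0.29), and *Mag*, another myelin protein, 2.54 and 5.67 CPM (1.15 ± 0.22, SE; edgeR adjusted p = 0.169). The sum over all 8 oligodendrocyte markers had an r of 0.90 with *Aldh1a2* over the 8 libraries, where both differ by dose, and of 0.61 around the dose means. The part of these cells in the difference of *Aldh1a2* was not tested. Of the 10 hindbrain and spinal cord markers 9 were tested, 7 had an unadjusted p under 0.05, all higher at 50 ppm, and 1 was called, *Hoxb8* (0, 0, 0.0653 and 0.0774 CPM at 0 ppm, against 6.31, 2.28, 3.07 and 4.90 CPM at 50 ppm). Here the sum overlapped between doses: control replicates 3 and 4, at 83.9 and 83.5 CPM, lay above exposed replicate 3 at 73.8 CPM. This sum had an r of 0.71 (rho 0.69) with *Aldh1a2* over the 8 libraries and of 0.32 around the dose means, and the part of caudal tissue in the difference of *Aldh1a2* was not tested.

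The remaining lists overlapped between doses. Choroid plexus markers summed to 480 to 1280 CPM at 0 ppm, against 376 to 845 CPM at 50 ppm, and endothelial markers to 256 to 298 CPM and 263 to 309 CPM, with 0 of 10 and 0 of 7 at an unadjusted p under 0.05. Eye markers summed to 3.68 to 7.65 CPM and 3.79 to 4.90 CPM, with 1 of 7 lower at an unadjusted p under 0.05. It was *Crx*, a photoreceptor factor, with means of 1.12 and 0.340 CPM (edgeR unadjusted p = 0.00327, adjusted p = 0.831). Its control brains had 2.56, 0.93, 0.686 and 0.31 CPM, against 0.246, 0.421, 0.428 and 0.265 CPM at 50 ppm. The groups overlapped, and the control mean rested largely on replicate 1. Pituitary markers summed to 1.01 CPM or less in every library, with 1 of 4 tested higher at an unadjusted p under 0.05. That was *Cga*, the shared hormone subunit, at means of 0.0597 and 0.301 CPM (edgeR unadjusted p = 0.0158, adjusted p = 0.999). It had 7, 0, 0 and 0 reads at 0 ppm, against 11, 13, 4 and 5 at 50 ppm. All of its control reads thus came from replicate 1, and the groups overlapped. Skin markers summed to 10.5 to 13.5 CPM and 10.1 to 13.4 CPM, and skeletal muscle markers to 7.59 to 8.82 CPM and 7.07 to 9.27 CPM. Of these, 0 of 4 and 0 of 5 had an unadjusted p under 0.05.

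*Aldh1a1* had the same 2 highest brains as 3 of the 8 markers of dopaminergic neurons, *Slc6a3*, *Th* and *Foxa1*, and the other 5 had other brains among their 2 highest. *Slc6a3*, the dopamine transporter, had 7.10, 4.43, 16.4 and 4.61 CPM at 0 ppm, against 5.68, 15.3, 7.64 and 6.57 CPM at 50 ppm. Control replicate 3 and exposed replicate 2 were again the high brains, and the r with *Aldh1a1* was 0.92 (rho 0.81), which was 0.53 without those 2 libraries. *Th*, the first enzyme of dopamine synthesis, had its highest values in the same brains, 9.24 and 8.64 CPM, against 3.89 to 7.19 CPM in the other 6. Its r with *Aldh1a1* was 0.72, and 0.15 without them, so both relations rest largely on 2 brains. The sum over all 8 dopaminergic markers was 101 to 143 CPM at 0 ppm, against 103 to 122 CPM at 50 ppm, with 1 marker higher (*Lmx1b*) and 1 lower (*Foxa1*) at an unadjusted p under 0.05, both named after their values were seen. Its r with *Aldh1a1* was 0.41, and the part of these neurons in the high values of *Aldh1a1* was not tested.

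**Figure D4:**
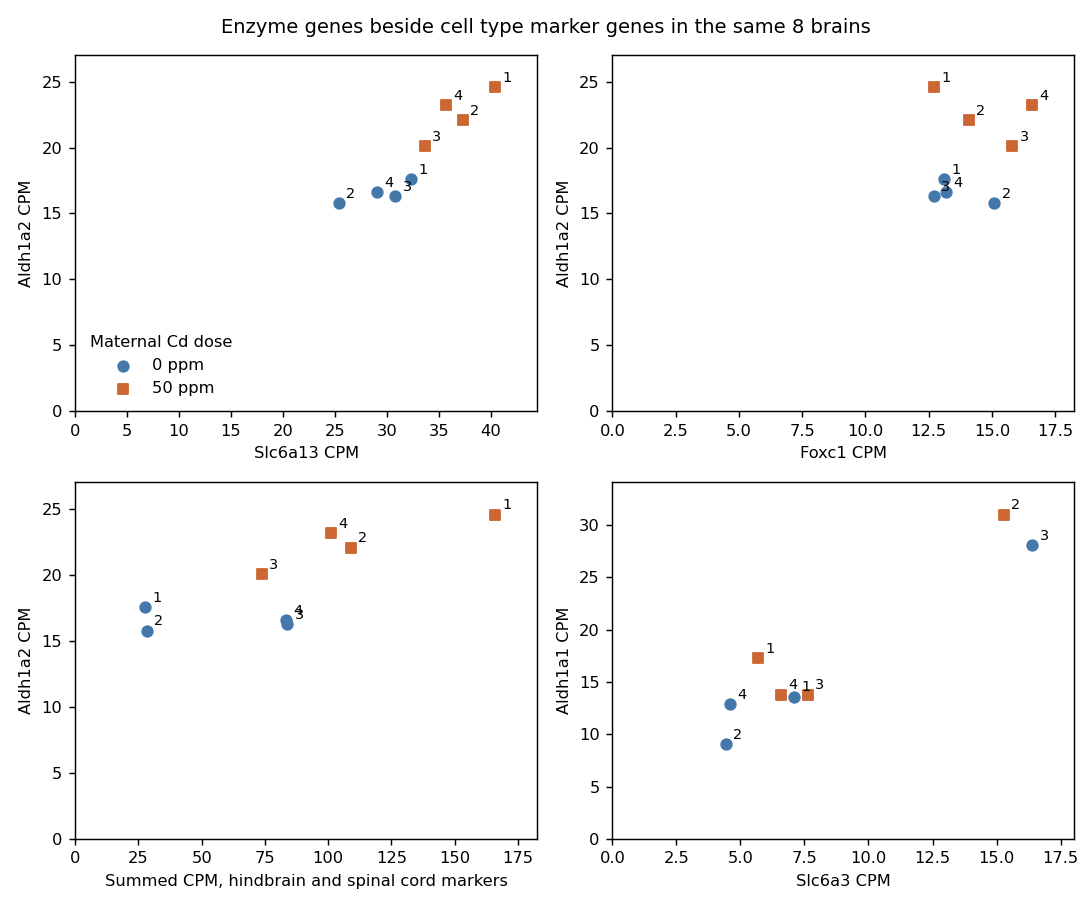
Aldh1a2 against Slc6a13, Foxc1 and the summed hindbrain and spinal cord markers, and Aldh1a1 against Slc6a3, all in CPM, with 1 point per brain and its replicate number (circles 0 ppm, squares 50 ppm). Aldh1a2 and Slc6a13 are both higher in the 4 exposed brains, Foxc1 overlaps between doses, and control replicate 3 and exposed replicate 2 are high for both Aldh1a1 (28.1 and 31 CPM) and Slc6a3 (16.4 and 15.3 CPM).

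Other members also had high values of r with some lists. Those given here were picked from all pairs of 7 members with the lists, and other pairs had values of similar size. *Aldh1a3* had an r of 0.74 (rho 0.79) with the dopaminergic sum, which was 0.89 without control replicate 3 and exposed replicate 3. Its r with the skin sum was 0.75. *Lrat* had an r of 0.86 with the summed hindbrain and spinal cord markers, which was 0.33 without control replicates 1 and 2, and an r of -0.78 with the choroid plexus sum, which was -0.76 without them. The choroid plexus sum was highest in control replicate 2, at 1280 CPM. *Dhrs3* had an r of 0.70 (rho 0.64) with that sum, and *Rdh10* also had an r of 0.70, but a rho of 0.40 and an r of -0.09 without control replicate 2 and exposed replicate 4. The low pair of control brains for *Lrat*, replicates 1 and 2, was also the pair with the lowest caudal sums, 27.8 and 28.3 CPM. The part of these cells and tissues in the levels of *Lrat*, *Dhrs3*, *Rdh10* and *Aldh1a3* was not tested.

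Among 14601 genes with a mean of at least 1 CPM, those whose log2 CPM were most like those of *Aldh1a2* over the 8 libraries included *Hoxb8* (r = 0.946), *Nacc2* (0.926), *Slc6a13* (0.923) and *Hoxb6* (0.913). For *Cyp26b1* they included *Utrn* (0.944), *Padi2* (0.937), *Ppfibp2* (0.937) and *Tnfrsf22* (0.913). For *Aldh1a1* the first 5 were *Mapk8ip1* (0.979), *Mdh1* (0.975), *Tmie* (0.967), *Ndufb3* (0.965) and *Dtd1* (0.965). Without the 2 libraries furthest from the median of *Aldh1a1*, these 5 kept r values of 0.866 to 0.965. *Aldh1a3* was most like *Chrna6* (r = 0.954, and 0.891 without its 2 furthest libraries), a nicotinic receptor subunit known from dopaminergic neurons, which is named after its values were seen. The rankings for *Aldh1a2* and *Cyp26b1* include the difference between doses. Around the dose means, the r with *Aldh1a2* was 0.45 for *Hoxb8* and 0.77 for *Slc6a13*. None of the genes named for *Aldh1a2* stayed among its first 5 there, and for *Cyp26b1* only *Tnfrsf22* (0.967) did. With so many genes and 8 libraries, high values of r arise in any such ranking.

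Outside the 10 members, 61 further retinoid genes were listed and 47 were tested. Of these, 0 were called by edgeR or by DESeq2, 2 were higher and 4 were lower at an unadjusted p under 0.05 (all genes, 2.31% and 1.44%), and the median log2 fold change was 0.01. Among the 21 further enzymes tested, *Lipe*, a hormone-sensitive lipase that releases retinol from its esters, was lower in all 4 exposed brains, with 11.4, 14.2, 11.5 and 11 CPM at 0 ppm, against 10.7, 8.64, 10.3 and 9.66 CPM at 50 ppm (log2 fold change -0.29 ± 0.12, SE; edgeR adjusted p = 0.999). *Aldh1a7* had means of 1.31 and 1.73 CPM (0.41 ± 0.27, SE; edgeR adjusted p = 0.999).

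All 13 genes of uptake and binding were tested. *Stra6l*, a relative of the retinol uptake receptor, had means of 1.14 and 0.679 CPM (log2 fold change -0.74 ± 0.30, SE; edgeR adjusted p = 0.999), and *Rbp3*, a retinoid carrier of the retina and pineal gland, 2.15 and 0.960 CPM (-1.14 ± 0.45, SE; edgeR adjusted p = 0.999). The values of *Rbp3* rested on control replicates 1 and 2, at 3.65 and 3.20 CPM, against 0.441 to 1.78 CPM in the other 6 brains. The uptake receptor *Stra6* (log2 fold change 0.02), the plasma retinol carriers *Rbp4* (0.25) and *Ttr* (-0.24), and the RA carriers *Crabp1* (0.19) and *Crabp2* (0.03) all had an unadjusted p of 0.05 or more.

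Of the 6 receptor genes, 5 had a negative and 1 a positive difference, with a median of -0.12. Over all 23113 genes tested, 11795 differences were negative. Only 1 receptor gene, *Rarb*, had an unadjusted p under 0.05 in edgeR's test. *Rarb*, whose promoter window holds the second motif pair with a gap of 5 shown above, had 27.0, 25, 35.2 and 22.5 CPM at 0 ppm, against 19.3, 24.8, 21.3 and 23.8 CPM at 50 ppm. Its groups overlapped, with means of 27.4 ± 5.53 and 22.3 ± 2.47 CPM (SD, n = 4 each) and a log2 fold change of -0.30 ± 0.12 (SE; edgeR adjusted p = 0.999). Among 11 genes known to respond to RA, 7 were tested. *Meis1*, a homeobox factor, had 14.9, 23.9, 26 and 26.2 CPM at 0 ppm, against 38.1, 27.2, 31 and 33.0 CPM at 50 ppm, with no overlap (log2 fold change 0.51 ± 0.14, SE; edgeR adjusted p = 0.789). *Hoxb4* had 0, 0, 45 and 64 reads at 0 ppm, against 213, 66, 52 and 45 reads at 50 ppm (log2 fold change 1.81 ± 0.69, SE; edgeR adjusted p = 0.999). Its 2 control brains at 0 were those with the lowest sums of hindbrain and spinal cord markers, a list that also holds *Hoxb4*.

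**Figure D5:**
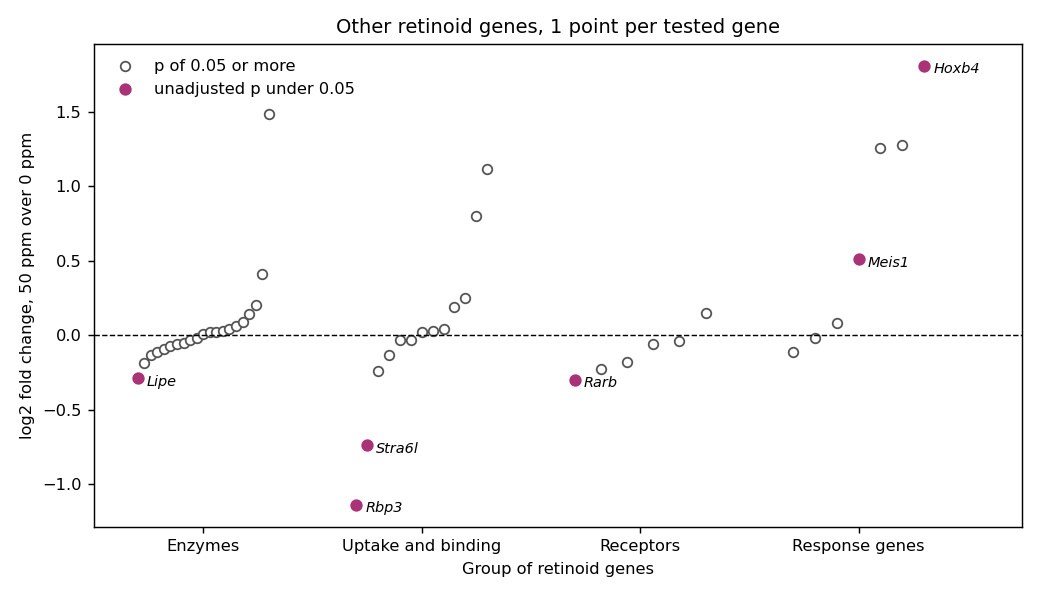
Log2 fold change of 50 ppm over 0 ppm for the 47 tested retinoid genes outside the 10 enzymes, 1 point per gene in 4 groups, with filled points for an unadjusted p under 0.05 in edgeR's test. Filled points lie above 0 in Meis1 and Hoxb4 and below 0 in Lipe, Stra6l, Rbp3 and Rarb, and none of the 47 passed the adjusted threshold.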

How the data were processed

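RNA-seq libraries were analysed for 4 brains at 0 ppm and 4 at 50 ppm, each from a different litter. Per gene, the authors deposited unnormalized counts of reads for the alignments to the C57BL/6J (GRCm38) and CAST/EiJ genomes. They had trimmed the first 10 bases of single-end reads, mapped them by STAR and used HTSeq for counting; versions and strand setting are not given in the sources used here. The study's stated rule on counts of 0 was applied, so a tested gene had a count in at least 3 libraries. It left 23113 genes, more than the study reports after its quality control. Doses were compared with edgeR 4.0.16 (TMM, glmQLFit and glmQLFTest, treatment as the only term, R 4.3.3), with Benjamini-Hochberg adjustment over all genes tested and a threshold of 0.05. The SE was taken as the absolute log2 fold change divided by the square root of F. Alternatives included DESeq2 1.42.0 and limma-voom (limma 3.58.1). The study itself tested doses with DESeq2 and treatment as the only term, and lists *Aldh1a2* among its differentially expressed genes. The main test here is therefore not the study's own. The study also reports qRT-PCR of select differentially expressed genes and higher retinoid levels in exposed newborn brains, neither of which was examined here. The code was tested on simulated data. Replicate numbers follow accession order. Identifiers on the CAST/EiJ genome were named for 120 genes, among them 2 members. Lengths, exons and overlaps came from GENCODE vM21 and shared sequence from blastn. The members, lists and motifs were chosen with earlier results of these data known. Named were all members, retinoid genes with an unadjusted p under 0.05 and 8 set ones, defining markers and the 5 most alike genes; some single genes of these sets are not reported here. Figures were drawn with matplotlib 3.10.9.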

Additional observations from a re-analysis of the deposited data

Results flagged for a closer look

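In each dose, a brain was singled out where its gap to the nearest other brain, divided by the range of the 4, was above Dixon's critical value of 0.829. Over the 20 groups (10 genes at 2 doses) this held for 3. Chance alone gives about 1 in 20 for normally spread values. That rate does not apply to few, tied reads, as in *Cyp26a1* and *Cyp26c1* at 0 ppm, so no excess is read from the 3. *Cyp26a1* at 0 ppm had a ratio of 0.922, from control replicate 1 with 11 reads against 2, 3 and 2. *Cyp26c1* at 0 ppm had a ratio of 1.0, from control replicate 4 with 2 reads against 0, 0 and 0, all within what a count of 0 allows. *Lrat* at 50 ppm had a ratio of 0.865, from exposed replicate 1 with 2.46 CPM against 1.61 to 1.72 CPM.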

How the results depend on the processing

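The number of members called was 0 with edgeR and 1 with DESeq2 (*Aldh1a2*) or without a filter on low counts (*Cyp26b1*), and it was 0 to 0 when each library was left out in turn. The number of other retinoid genes called was 0 throughout, and 0 to 0 on leaving out libraries. The direction of *Aldh1a2*, *Cyp26b1*, *Aldh1a3*, *Rdh10*, *Dhrs3* and *Cyp26a1* was kept in all alternatives that gave a value. Leaving out libraries turned the log2 fold change of *Aldh1a1* (-0.09 to 0.68), *Lrat* (-0.04 to 0.51) and *Bco1* (-0.41 to 0.45), and limma-voom gave 0.10 for *Bco1*. The causes were not tested. With the longest transcript in place of the exon union, levels at 0 ppm were 6.75 RPKM for *Aldh1a1*, 6.94 for *Rdh10*, 4.32 for *Dhrs3* and 10.1 for *Cyp26b1*. Over all genes, 4 were called by edgeR, 18 by DESeq2, 52 without a filter, 2 with a minimum of 10 counts in 4 libraries (which left *Cyp26a1*, *Cyp26c1* and *Bco1* untested), 1 by limma-voom and 2 to 20 on leaving out libraries (20 without control replicate 3). No paired analysis was possible because the replicate numbers were given in accession order and pair no pups. For *Cyp26c1* and *Bco1* the few reads limited what could be detected, and for *Cyp26a1* the spread between brains added to the counting error.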
